A study of Caenorhabditis elegans with 8 samples.

Results

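The 10 genes described here encode proteins of small RNA processing and antiviral RNA interference in Caenorhabditis elegans. They were chosen by name: dcr-1, drh-1, drh-3, rde-4, eri-1, eri-5, rrf-3, rsd-2, sid-1 and xrn-2. All 10 were found in a RefSeq gene table, among 19971 protein-coding genes of the nuclear chromosomes. The study mapped the sites of the transcription factor SKN-1, tagged with green fluorescent protein, by chromatin immunoprecipitation and sequencing of whole animals. SKN-1 is related to mammalian Nrf2 and is known for its part in responses to oxidative stress. The stated aim was to set the binding of the gain-of-function form against that of the wild-type form, and the study's title names a Dicer-related helicase as an opponent of the harm done by active SKN-1.

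The GF samples carried the gain-of-function allele lax188, labelled SKN-1gf(lax188), with the GFP tag. The WT samples carried the tagged wild-type protein. All animals were unstarved and kept at 20°C on the Escherichia coli strain OP50. Each form was precipitated from 2 samples with a Chromotek GFP reagent, giving the lists GF 1, GF 2, WT 1 and WT 2. A sample without antibody exists for each, labelled separately, and those 4 samples were not analysed here. The age and sex of the animals, how the tag was introduced, and whether replicates came from separate cultures are not given in the sources used here. In whole animals the cells in which SKN-1 sat at a site cannot be told apart.

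RNA interference starts when long double-stranded RNA is cut into short interfering RNAs. Dicer makes the cut, helped by double-stranded RNA binding proteins and Dicer-related helicases. RNA-dependent RNA polymerases then copy target transcripts into further small RNAs, and in the worm silencing spreads between cells. The same machinery limits virus replication, and part of it makes the worm's own small RNAs, in competition with the response to outside RNA.

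The peak lists differed in length, and each result below rests on that. GF 1 held 25007 peaks, GF 2 905, WT 1 15943 and WT 2 29541. Median fold enrichment over the caller's background was 1.55 in GF 1, 1.51 in GF 2, 1.46 in WT 1 and 1.47 in WT 2. The read depth behind the lists is unknown. Peaks of WT 2 are named after replicate 1 of WT in their file, yet differ from those of WT 1, so only the sample record says which library they came from. With 2 lists against 2, a two-sided exact permutation test cannot give a p below 0.333, and no difference between the forms was tested. Where a list has no peak, a call is missing, and absence of SKN-1 is not shown.

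Every member had a summit inside the gene or within 2000 bp in at least 1 list. GF 1 had a summit at 8 of the 10 genes, where 75.6% of all protein-coding genes had one. GF 2 had a summit at 3 of the 10, against 7.06% of all genes. WT 1 had a summit at 4 of the 10, against 58.6% of all genes. WT 2 had a summit at all 10, against 81.8% of all genes. The counts of GF 1 and WT 2 were thus not far from the share of genes at large, GF 2 was above it and WT 1 below it. Genes at large are shorter than most of these, with a median of 2006 bp, and 9 of the 10 members were longer than that. Among genes longer than this median the shares were 82% in GF 1, 7.19% in GF 2, 65.9% in WT 1 and 87.1% in WT 2. Per kb of gene and flanks, with summits and lengths summed over genes, the members had fewer summits in the long lists than genes at large, with 0.169 per kb against 0.258 in GF 1, 0.0976 against 0.160 in WT 1 and 0.231 against 0.310 in WT 2. In GF 2 the value was 0.0266 per kb against 0.0126, from 3 summits. Unlike the shares, these values per kb were not set against longer genes alone.

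**Figure D1:**
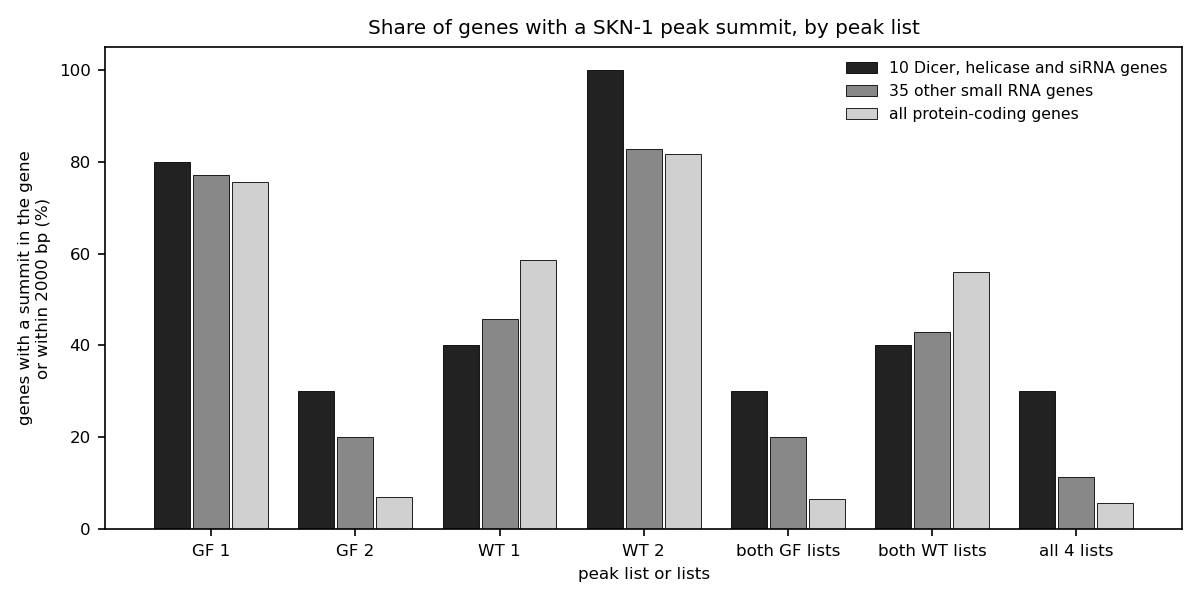
Bars give the percentage of genes with a SKN-1 summit in the gene or within 2000 bp, for each peak list or set of lists (horizontal axis), in the 10 members (black), 35 other small RNA genes (grey) and all protein-coding genes (light grey). The members reached 30% in GF 2 and 40% in WT 1, against 7.06% and 58.6% of all genes.

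Genes fell into a few patterns by the lists that held them. Summits in all 4 lists were found at rde-4, eri-5 and xrn-2, which is 3 of 10 genes against 5.65% of all genes. The same 3 were the members held by both GF lists (6.62% of all genes). With rsd-2, 4 of 10 were held by both WT lists (56.1% of all genes), and the same 4 by GF 1, WT 1 and WT 2 (53.3%). Summits in GF 1 and WT 2 only were found at drh-1, drh-3, eri-1 and sid-1, which is 4 of 10 against 16.7% of all genes. The genes dcr-1 and rrf-3 had summits in WT 2 only, 2 of 10 against 7.93% of all genes. No member was held by both GF lists and no WT list (0.0501% of all genes) or by both WT lists and no GF list (2.61%).

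Counted inside the gene alone, GF 1 had a summit in 7 of the 10 members, against 49.2% of all genes and 64.4% of genes longer than the median. GF 2 had a summit in 0 of the 10, against 2.65% and 3% in the same order. WT 1 had one in 3 of the 10, against 34.2% and 46.8%, and WT 2 in 7 of the 10, against 55.4% and 70%. In GF 2 the 3 members were thus counted through the flanks alone.

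Of the 59 peaks with a summit at a member, 26 had the summit inside the member itself. Another 22 had it outside the member and inside a neighbouring protein-coding gene. For 26 of the 33 summits outside a member another protein-coding gene was nearer. Peaks of the 4 lists that overlapped by at least 1 bp were taken as 1 site, which gave 32 sites. Of these, 3 held summits of all 4 lists, 5 of 3 lists, 8 of 2 lists and 16 of a single list. At 12 of the 16 sites held by more than 1 list the summits lay within 60 bp of each other. Sites of the whole lists were not counted in this way. The site counts at the members thus cannot be set against those of genes at large.

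**Figure D2:**
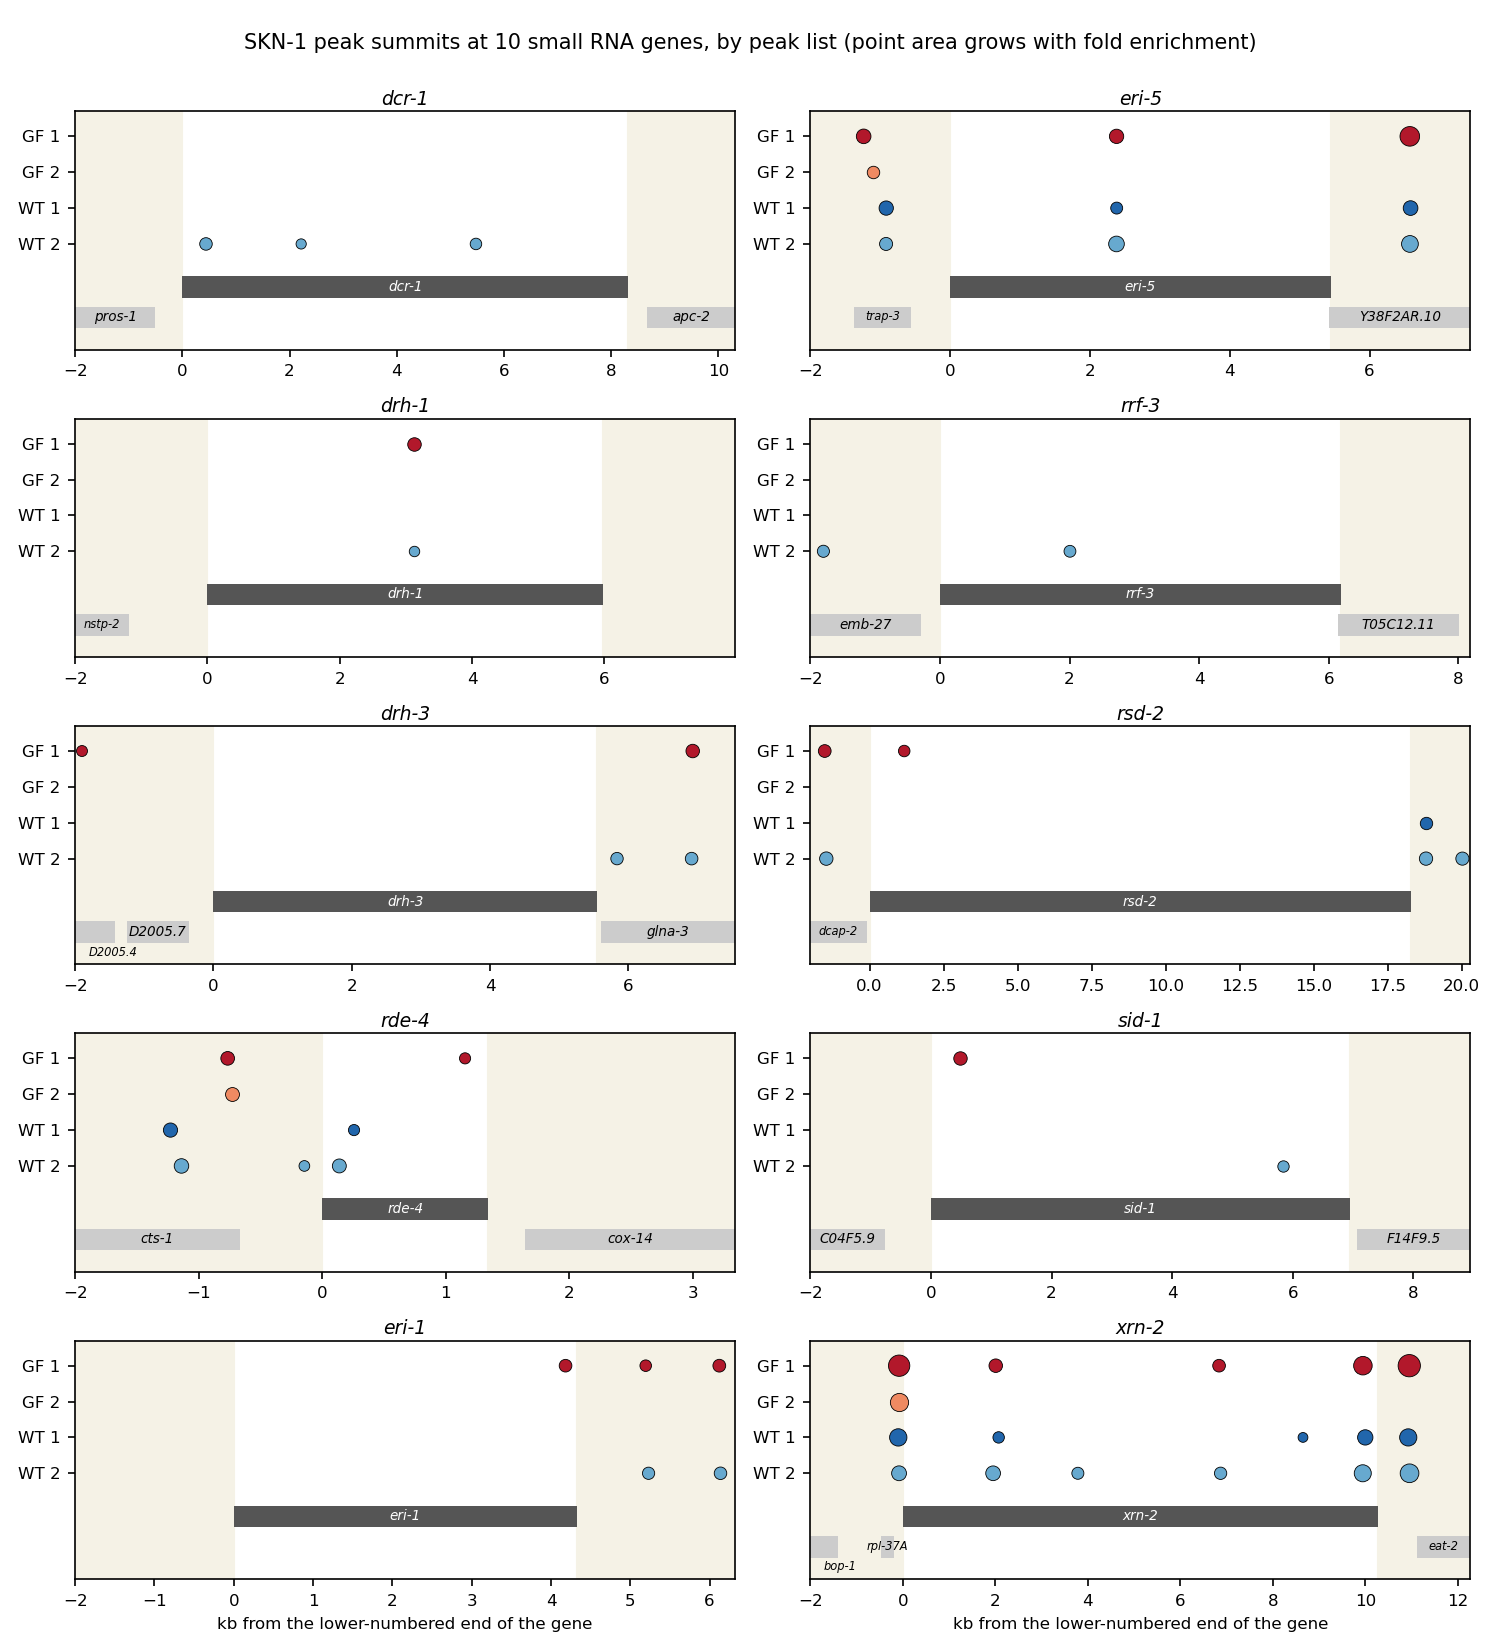
Each panel is 1 of the 10 genes, with the position along the chromosome in kb from the gene's lower-numbered end and a row for each peak list. Points are SKN-1 peak summits, larger with higher fold enrichment; dark bars are the members, light bars neighbouring protein-coding genes (not drawn at eri-1), and shaded bands the 2000 bp flanks. Gene spans come from a table of another build than the peaks. GF 2 has a point at rde-4, eri-5 and xrn-2 only, each outside the member.

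Dicer itself had a low and isolated set of peaks. The gene dcr-1 (K12H4.8, chromosome III) encodes the ribonuclease that cuts double-stranded RNA and microRNA precursors. GF 1, GF 2 and WT 1 had no summit there. WT 2 had 3, all inside the gene, at 8072207 to 8072486 with a fold of 1.47, at 8073922 to 8074196 with a fold of 1.27, and at 8077363 to 8077518 with a fold of 1.38. By fold the first stood at percentile 49.0 of WT 2 and the second at percentile 5.02, where the percentile is the share of peaks of the same list with a fold no higher. None of the 3 sites was thus seen in a second file, and all lay below the middle of the WT 2 list. Positions are those of the deposited lists, whose notes name build ce10.

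The helicase gene drh-1 (F15B10.2, chromosome IV) had 1 site. Its product resembles mammalian RIG-I, works with Dicer, and is needed for the antiviral response in the worm. GF 1 had a peak inside the gene with a fold of 1.57, at percentile 55.2 of its list and a -log10 q of 5.86. WT 2 had a peak with a fold of 1.29, at percentile 7.62 and a -log10 q of 2.26. GF 2 and WT 1 had none. The summits of GF 1 and WT 2 were 7 bp apart within a joint span of 6610367 to 6610717, with no other protein-coding gene within 2000 bp. The site was therefore held by 1 list of each form and by neither of their replicates.

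The second helicase gene drh-3 (D2005.5, chromosome I) had summits outside the gene only. Its product works with RNA-dependent RNA polymerases in making secondary small RNAs. GF 1 and WT 2 shared a site at 7827652 to 7827889, with folds of 1.57 in GF 1 and 1.48 in WT 2 and summits 16 bp apart. WT 2 had a further peak at 7826567 to 7826730 with a fold of 1.46. Both sites lay inside the neighbouring gene glna-3, which encodes a glutaminase. A GF 1 peak with a fold of 1.33 lay on the other side, inside D2005.4. GF 2 and WT 1 had no summit there, so in none of the lists did a summit fall inside drh-3.

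At rde-4 (T20G5.11, chromosome III) the site shared by all lists lay in the gene next to it. RDE-4 binds double-stranded RNA and hands it to Dicer, and at 1345 bp its gene was the shortest of the 10. The joint peak span was 10214605 to 10216644, with all 4 summits inside cts-1, the citrate synthase gene. Folds there were 1.58 in GF 1, 1.61 in GF 2, 1.64 in WT 1 and 1.68 in WT 2. They stood at percentile 57.4 in GF 1, 69.2 in GF 2, 83.4 in WT 1 and 82.7 in WT 2. The summits spread over 501 bp, so this was not a sharp summit shared by all 4 lists. They lay at 10216537 in GF 1, 10216575 in GF 2, 10216074 in WT 1 and 10216163 in WT 2. The GF summits were thus close to each other, as were the WT summits, and this pattern was not tested. The peaks were unlike in width, with 1023 bp in GF 1, 172 bp in GF 2, 964 bp in WT 1 and 2018 bp in WT 2. The WT 2 peak also covered a stretch of cts-1 where GF 1, GF 2 and WT 1 each had a separate peak, its summit more than 2000 bp from rde-4. Inside rde-4, WT 1 and WT 2 shared a site at 10217391 to 10217613, where the WT 1 fold was 1.35 and the WT 2 fold 1.61. GF 1 had its own peak inside the gene at 10218339 to 10218493 with a fold of 1.34, percentile 7.5 of its list. No GF peak overlapped the site of the WT lists, and the fold of the WT 1 peak there was at percentile 18.2 of its list. That difference between the forms was not tested.

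The ERI genes act in the pathway of the worm's own small RNAs, and their loss is known to enhance the response to outside double-stranded RNA. The exonuclease gene eri-1 (T07A9.5, chromosome IV) had summits in GF 1 and WT 2. GF 1 had 1 peak inside the gene, at 419734 to 419912, with a fold of 1.48. The other 4 peaks, 2 of GF 1 and both of WT 2, had their summits outside the gene, so in WT 2 no summit fell inside eri-1. All 5 peaks at eri-1 ranked below the middle of their list, and GF 2 and WT 1 had none.

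The Tudor domain gene eri-5 (Y38F2AR.1, chromosome IV), whose product links RRF-3 to Dicer, had 3 sites. The site inside the gene, at 2393095 to 2393366, had folds of 1.65 in GF 1, 1.41 in WT 1 and 1.81 in WT 2, and no peak in GF 2. Its 3 summits lay within 3 bp, the closest agreement among the sites held by more than 1 list. The strongest site, at 2397074 to 2397471, lay inside Y38F2AR.10 and had folds of 2.34 in GF 1, 1.69 in WT 1 and 1.95 in WT 2, with summits within 11 bp. These stood at percentile 97.8 in GF 1, 87.8 in WT 1 and 95.5 in WT 2. The site held by all 4 lists lay on the other side, at 2389431 to 2390143, inside trap-3, which encodes a subunit of the translocon-associated protein complex. Its folds were 1.69 in GF 1, 1.46 in GF 2, 1.65 in WT 1 and 1.52 in WT 2, and its summits spread over 323 bp. The GF 2 peak there did not overlap the WT 1 peak directly, and both overlapped peaks of the other lists.

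The polymerase gene rrf-3 (F10B5.7, chromosome II), which acts in the same pathway, had peaks in WT 2 only. One, at 8164135 to 8164907, lay inside the gene with a fold of 1.41, percentile 33.1 of WT 2. The other, with a fold of 1.43, lay inside emb-27, which encodes a subunit of the anaphase-promoting complex. As at dcr-1, neither site was seen in a second file.

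The genes of the systemic response, rsd-2 and sid-1, were long genes with few summits. At rsd-2 (F52G2.2, chromosome IV), which spans 18296 bp and is required for the response to double-stranded RNA taken up by feeding, the only summit inside the gene was a GF 1 peak with a fold of 1.38. WT 1 and WT 2 shared a site beyond one end at 13540646 to 13540840, where the WT 1 fold was 1.46 and the WT 2 fold 1.55, with summits 13 bp apart. No GF peak overlapped it. GF 1 and WT 2 shared a site beyond the other end, inside dcap-2, the gene of an mRNA decapping enzyme, with folds of 1.49 in GF 1 and 1.56 in WT 2. In summits per kb of gene and flanks rsd-2 had 0.0897 in GF 1, 0.0449 in WT 1 and 0.135 in WT 2, below the median gene of each list (0.206, 0.138 and 0.275 in that order). At sid-1 (C04F5.1, chromosome V), the gene of the double-stranded RNA channel, GF 1 and WT 2 each had 1 peak inside the gene. The GF 1 peak at 5120386 to 5120552 had a fold of 1.56 and the WT 2 peak at 5125737 to 5125894 a fold of 1.36. These lay toward opposite ends of the gene, so that both lists counted sid-1 while sharing no site there.

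The strongest peaks of the 10 genes were at xrn-2 (Y48B6A.3, chromosome II), the gene of a nuclear exoribonuclease that acts in transcription termination and in microRNA turnover. It had 5 summits in GF 1, 1 in GF 2, 5 in WT 1 and 6 in WT 2. A fold of at least 2 was reached by 8 of the 59 peaks at members, of which 7 were at xrn-2 and 1 at eri-5. Among all peaks that fold was reached by 6.86% in GF 1, 6.3% in GF 2, 2.84% in WT 1 and 3.41% in WT 2. These shares are per list, whereas the 8 peaks are pooled over the 4 lists. In WT 2 the only member peak to reach that fold was at xrn-2, with 2.21. The site held by all 4 lists, at 14155194 to 14156143, had folds of 2.61 in GF 1, 2.14 in GF 2, 2.02 in WT 1 and 1.71 in WT 2. It stood at percentile 99.0 in GF 1, 96.0 in GF 2, 97.3 in WT 1 and 85.8 in WT 2. Its 4 summits lay within 19 bp, between xrn-2 and the ribosomal protein gene rpl-37A and within 500 bp of each. By the gene table, which is of another build than the lists, no other protein-coding gene was nearer to these summits than xrn-2, but rpl-37A was farther by less than 100 bp, so that order depends on the table fitting the lists' build.

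At the other end of xrn-2 the 3 long lists shared a pair of sites. The one between xrn-2 and eat-2, a gene of a nicotinic receptor subunit, spanned 14166107 to 14167124 with folds of 2.78 in GF 1, 2.004 in WT 1 and 2.21 in WT 2. It held the peak of highest fold at any member in GF 1 and in WT 2. By the gene spans used here, of another build, eat-2 was nearer than xrn-2 to its summits in all 3 lists. The one inside xrn-2, at 14165351 to 14165881, had folds of 2.19 in GF 1, 1.77 in WT 1 and 1.98 in WT 2. A further site of these lists, at 14157628 to 14158199, lay inside the gene with folds of 1.57 in GF 1, 1.37 in WT 1 and 1.70 in WT 2. GF 2 had no peak at these sites. Without xrn-2 the other 9 genes had 0.142 summits per kb in GF 1, 0.0203 in GF 2, 0.0610 in WT 1 and 0.203 in WT 2.

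**Figure D3:**
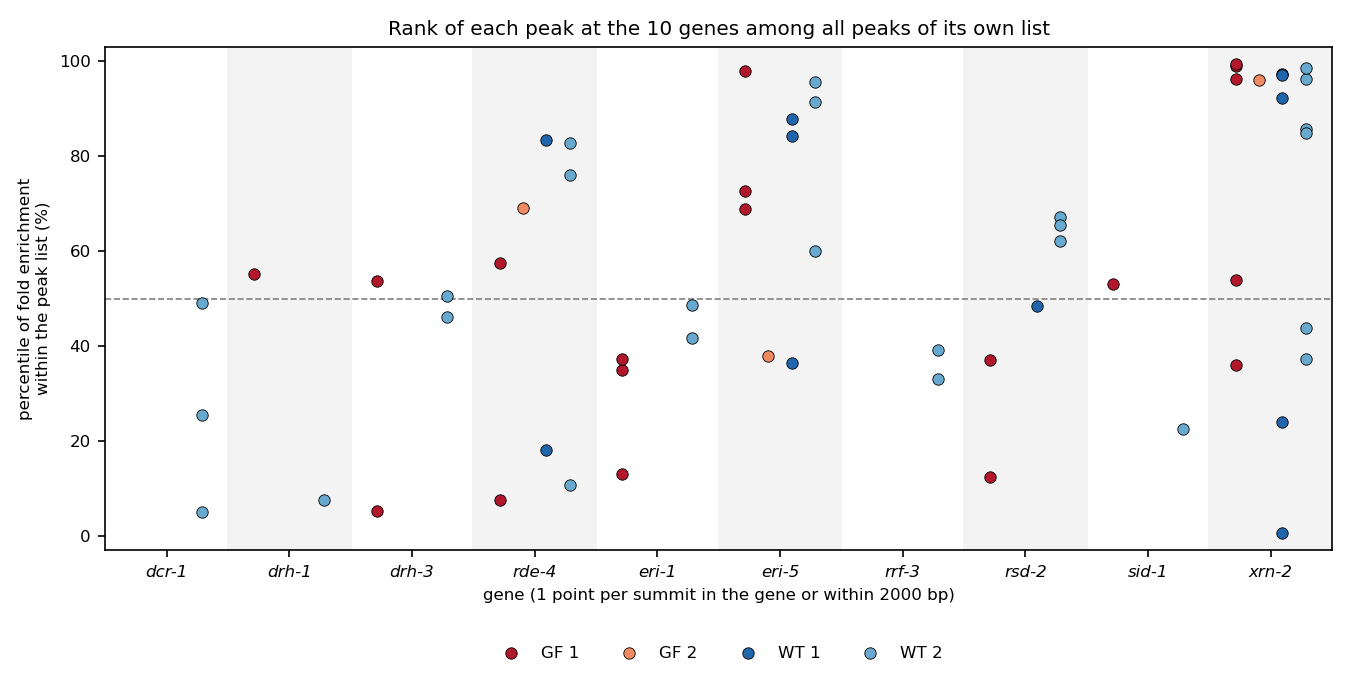
Each point is a SKN-1 peak with its summit in the gene or within 2000 bp (horizontal axis, 1 column per gene), placed by the percentile of its fold enrichment among all peaks of its own list, and coloured by list. The dashed line is the middle of a list. At xrn-2 each list has a peak at percentile 96.0 or higher, while the peaks at dcr-1, eri-1 and rrf-3 lie below the middle.

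Agreement between files at the members was set against that of whole lists. Of the 19 GF 1 peaks at members, 14 overlapped a WT 2 peak (79.5% of all GF 1 peaks did), 8 a WT 1 peak (48.7% of all) and 3 a GF 2 peak (2.41%). The 3 GF 2 peaks all overlapped a GF 1 peak (72.9% of all GF 2 peaks) and a WT 2 peak (74.5%), and 2 overlapped a WT 1 peak (60.3%). Of the 11 WT 1 peaks, 10 overlapped a WT 2 peak (85% of all WT 1 peaks), 8 a GF 1 peak (80.9%) and 2 a GF 2 peak (3.3%). Of the 26 WT 2 peaks, 10 overlapped a WT 1 peak (43.1% of all WT 2 peaks), 14 a GF 1 peak (66.6%) and 3 a GF 2 peak (2.12%).

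Within each list the member peaks were spread over both sides of the middle. A fold above the list's median was found for 11 of 19 peaks in GF 1, 2 of 3 in GF 2, 6 of 11 in WT 1 and 13 of 26 in WT 2. The median percentile of fold was 53.8 over 19 peaks in GF 1, 69.2 over 3 peaks in GF 2, 83.4 over 11 peaks in WT 1 and 49.8 over 26 peaks in WT 2. Of the 11 peaks in WT 1, 5 were at xrn-2. The WT 1 median was the lowest of the 6 peaks above the middle, and the next peak down stood at percentile 48.5.

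The limit of 2000 bp left out 19 summits that lay 2000 to 3000 bp from a member. The largest folds among them were inside Y38F2AR.10 beyond eri-5, with 3.10 in GF 1, 2.14 in WT 1 and 3.03 in WT 2. The nearest summits inside the limit there are those of the Y38F2AR.10 site above. Beyond sid-1, inside C04F5.9, folds were 1.51 in GF 1, 1.48 in WT 1 and 1.29 in WT 2. With these summits added, sid-1 in WT 1 would be the only gene and list to change.

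Other genes of small RNA pathways were taken from a list by role, without Argonautes. Of 37 names, 35 were in the table, and mut-2 and cde-1 were not matched. The table gives drh-2 as a pseudogene and the others as protein-coding, and shares of all genes are of protein-coding genes. In these 35 genes summits were found at 27 in GF 1, 7 in GF 2, 16 in WT 1 and 29 in WT 2. By role, GF 1, GF 2, WT 1 and WT 2 held 2, 1, 3 and 2 of the 3 polymerase genes, 3, 0, 2 and 5 of the 6 Dicer and ERI partners, and 2, 1, 0 and 2 of the 2 Microprocessor genes. They held 7, 2, 5 and 9 of 11 mutator and secondary small RNA genes, 5, 0, 2 and 3 of 5 systemic genes, 3, 2, 1 and 3 of 3 nuclear genes, and 5, 1, 3 and 5 of 5 exonuclease, editing and other genes. The shares of 77.1% in GF 1 and 82.9% in WT 2 were close to the 75.6% and 81.8% of all genes. As at the 10 members, the GF 2 share of 20% was above the 7.06% of all genes and the WT 1 share of 45.7% below the 58.6%. Of the 35 genes, 27 were longer than the median of all protein-coding genes. Among genes longer than that median the shares were 82% in GF 1, 7.19% in GF 2, 65.9% in WT 1 and 87.1% in WT 2. The shares of the 35 were below these in GF 1, WT 1 and WT 2. Summed over the 4 lists, the most summits were at xrn-1, a gene of a cytoplasmic exonuclease, with 8 in GF 1, 0 in GF 2, 7 in WT 1 and 7 in WT 2. It was also the longest of the 35, at 20971 bp. Per kb of gene and flanks it had 0.320 summits in GF 1, 0.280 in WT 1 and 0.280 in WT 2. The pooled values of genes at large were 0.258, 0.160 and 0.310 in that order. Next in number was rrf-2, a polymerase gene of 7442 bp, with 8 in GF 1, 0 in GF 2, 3 in WT 1 and 9 in WT 2. Its values per kb were 0.699 in GF 1, 0.262 in WT 1 and 0.787 in WT 2.

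**Figure D4:**
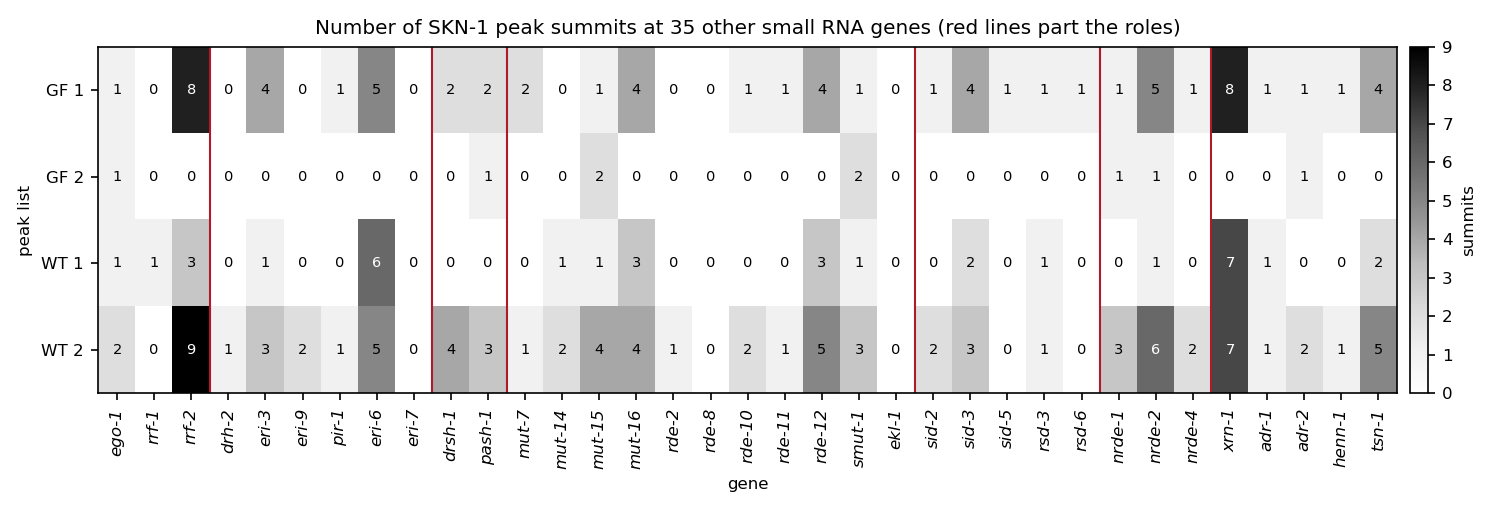
Each cell gives the number of SKN-1 peak summits in a gene or within 2000 bp, for 35 small RNA genes (columns, parted by role) and the 4 peak lists (rows); darker means more. GF 2 holds 7 of the genes, and ego-1, mut-15, smut-1 and nrde-2 have a summit in each row.

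Summits in all 4 lists were found at 4 of the 35 genes (11.4%, against 5.65% of all genes), and here too many of them lay in a neighbour. At ego-1, a germline RNA-dependent RNA polymerase gene, the shared peaks had their summits inside F26A3.4, with folds of 1.85 in GF 1, 1.84 in GF 2, 1.53 in WT 1 and 1.86 in WT 2. These peaks overlapped, but the GF 2 summit at 7657148 lay apart from the others. Those were at 7657986 in GF 1, 7657929 in WT 1 and 7658015 in WT 2. At smut-1, a gene of a mutator helicase, the shared peaks lay inside crt-1, the calreticulin gene, with folds of 2.15 in GF 1, 1.75 in GF 2, 2.07 in WT 1 and 2.09 in WT 2. The GF 2 summit with the fold of 1.75 was within 100 bp of smut-1. Another GF 2 summit inside crt-1, with a fold of 1.45, lay farther off. At mut-15 the strongest peaks of GF 2, WT 1 and WT 2, with folds of 1.67, 1.72 and 1.79 in that order, lay inside fib-1, which encodes the nucleolar protein fibrillarin. On the other side, inside hrde-2, GF 1, GF 2 and WT 2 shared a site with folds of 1.44 in GF 1, 1.37 in GF 2 and 1.53 in WT 2. At nrde-2, a gene of nuclear silencing, each list had a summit inside the gene. The GF 2 peak at 10242744 to 10242979 was overlapped there by a GF 1 peak and by no WT peak. GF 1, WT 1 and WT 2 shared another site inside the gene, with folds of 1.64 in GF 1, 1.76 in WT 1 and 1.41 in WT 2. GF 1 and WT 2 each also had a peak inside the neighbouring gene atad-3.

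The only gene of this list held by both WT lists and no GF list was mut-14, a gene of another mutator helicase, which makes 2.86% of the list against 2.61% of all genes. The WT lists shared a site there inside hex-2, at percentile 59.1 in WT 1 and 4.36 in WT 2. No gene was held by both GF lists and no WT list. The genes eri-7, rde-8 and ekl-1 had no summit in any list, which was so for 12.2% of all genes.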

How the data were processed

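The authors deposited 1 narrowPeak list for each precipitated sample, so peaks were called per sample. The submitters' processing notes name the peak caller MACS2 2.2.7.1, the aligner BWA 0.7.17, Trim Galore 0.6.4, SAMtools 1.10 and the genome build ce10. Settings and the control used are not given in the sources used here. As deposited, each peak carries a fold enrichment relative to the background, its p and q as -log10 values, and a score, which is 10 times the -log10 q rounded down. Folds and scores are the authors' values per peak and were used within a list only. The lists hold no read counts, so depth is unknown.

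A summit was column 2 plus column 10, given here as a 1-based position. It counted for a gene when it lay in the gene or within 2000 bp. Genes came from a RefSeq table of assembly WBcel235, another build than the lists, without strand or exons, so no position of that table is given, exons, introns and promoters were not assigned, and summits were also moved by 100 bp in either direction. No sequence of the lists' build was used here. Shares of all protein-coding genes stand beside counts of genes held by a list or set of lists. Exceptions are counts by role and counts under the alternative settings. Shares of all peaks stand beside counts of overlapping peaks, but none were computed for counts of sites by number of lists. No test was run on the members. The genes and the list of other pathway genes were chosen with earlier results of these data known. All 10 genes are described, and of the other pathway genes those with a summit in all 4 lists, in both lists of a single form, or in none; rrf-2 and xrn-1 were named for their number of summits after their values were seen. Counting was checked on planted summits. Python 3.11.15, NumPy 2.4.6, pandas 2.3.3 and matplotlib 3.10.9 were used. Details of the flanks of eri-1 are not reported here.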

Additional observations from a re-analysis of the deposited data

How the results depend on the processing

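Of 152 alternative values, 112 were within 1.5 times the reported count and 40 were not. The 112 include the value with the replicate number as a block, which equals the reported value by arithmetic. Shares of all genes were not computed under most of these settings. A fall or rise in a count thus cannot be set against that of genes at large. For summits inside the gene, the shares in each list are given above. Moving summits by 100 bp in either direction, or counting whole peaks in place of summits, left each count within 1.5 times. With lists of equal length (905 peaks) the members held were 2 in GF 1, eri-5 and xrn-2, and 1 in each of WT 1 and WT 2, xrn-2, which was also the 1 gene of both WT lists, of GF 1, WT 1 and WT 2, and of all 4 lists. At that length the other pathway genes held were 0 in GF 1, 1 in WT 1, 1 in WT 2 and 0 in all 4. In GF 2, in both GF lists and in all 4 lists the 3 members became 1 with a window of 500 bp, 0 inside the gene only and 1 when a summit counted for the nearest gene only. The other pathway genes became 3, 2 and 2 in GF 2 and 2, 1 and 1 in all 4 lists under these settings, and 16 in GF 1 inside the gene only. A window of 1000 bp left 2 of them in all 4 lists. With a fold of at least 1.5, WT 2 held 4 members, and the other pathway genes held were 17 in GF 1, 4 in GF 2 and 10 in WT 1. With a -log10 q of at least 5 these were 16 in GF 1 and 4 in GF 2. Leaving out a list in turn, members held by the rest ranged from 3 to 8 for both GF lists (8 without GF 2), from 4 to 10 for both WT lists (10 without WT 1), from 4 to 8 for GF 1, WT 1 and WT 2 (8 without WT 1), and from 3 to 4 for all 4 lists. Other pathway genes ranged from 4 to 14 for all 4 lists, with 14 without GF 2 and 7 without WT 1. Sites held by all 4 lists fell to 1, at xrn-2, when summits had to lie within 100 bp, and to 1 with a reciprocal overlap of 50%. The mean number of members per list was lower by 1.5 in GF than in WT (a difference of -1.5). Taking the replicate number as a block gives the same -1.5 by arithmetic, so it is no check. The difference is made of 4 for number 1 (8 in GF 1, 4 in WT 1) and -7 for number 2 (3 in GF 2, 10 in WT 2). Over all protein-coding genes the shares were 75.6% in GF 1 and 58.6% in WT 1, and 7.06% in GF 2 and 81.8% in WT 2. The members thus differed in the same direction as all genes within each number, and no difference was tested. The labels do not say that a number marks a shared batch. The causes of these changes were not tested. List length differed 27.6-fold between the GF lists, and depth, which is unknown, limits what a missing peak can show.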
